A study of Mus musculus with 42 samples.

Results

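Igf1, Spp1, Gpnmb, Axl, Mamdc2, Wfdc17, Serpine2, Ccl6 and Timp2 encode secreted factors, shed receptors and protease inhibitors that microglia make in greater amount around amyloid plaques. These 9 genes were chosen by name, with the 5xFAD against wild-type values of these libraries already known, so every value of that contrast is given below as a description, without a test. All 9 have a row in the cortex and hippocampus table (53546 genes) and in the whole-brain table (24421 genes). After the filter on low counts, 9 of 9 were tested in hippocampus, 7 in cortex and 6 in whole brain. Gpnmb and Mamdc2 were too low in cortex, and these and Wfdc17 in whole brain. In hippocampus Mamdc2 had 0 counts in every wild-type library and passed the filter through the 5xFAD groups. Its wild-type and interaction tests could therefore give no call. The same holds for Gpnmb between wild-type SPF and acetate, both at 0 counts.

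Microglia are the resident macrophages of the brain. Near plaques they pass from a resting state, marked by purine receptors and other surveillance genes, to a disease-associated state in which lysosomal, lipid and secretory genes are raised, in part through the receptor Trem2. Igf1 is insulin-like growth factor 1, which acts on neurons and myelinating cells through the receptor Igf1r. Spp1 is osteopontin, a secreted phosphoprotein that binds integrins and Cd44. Ccl6 is a mouse CC chemokine that signals through Ccr1, and Wfdc17 is a small secreted whey acidic protein-domain protein of activated mouse macrophages and microglia. Axl is a receptor tyrosine kinase of the TAM family that binds Gas6 and serves in the uptake of dying cells, and Gpnmb is a transmembrane glycoprotein of lysosomes and the cell surface whose outer part can be shed. Mamdc2 is a secreted protein with MAM domains. Serpine2 is protease nexin-1, which inhibits thrombin and plasminogen activators, and Timp2 inhibits matrix metalloproteinases and takes part in the activation of Mmp2.

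The 42 libraries, in 11 groups, were bulk RNA-seq of microglia from C57BL/6 mice, taken through a density gradient and then a CD11b+ CD45lo sort. Whole brain holds wild-type mice aged 6 to 12 weeks, whose titles carry the marks 8w and F. Of these, 3 were specific-pathogen-free (SPF) and 5 germ-free (GF). Cortex holds wild-type mice aged 16 weeks that were SPF, GF or GF with acetate in the drinking water (n = 4 each), and hippocampus holds wild-type mice (SPF n = 4, GF n = 3, acetate n = 4) and 5xFAD mice (SPF n = 4, GF n = 3, acetate n = 4) of the same age. The labels give 8 weeks of acetate, and name 4 weeks for a GF group that they tie to no library. 5xFAD mice carry mutant human transgenes of familial Alzheimer's disease under the neuronal Thy1 promoter, so the transgenes are driven in neurons and not in the microglia sorted here.

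Total counts per library were 19329304 to 25366393 in whole brain, 15790383 to 23860490 in cortex and 5743891 to 22532410 in hippocampus, where wild-type SPF 4 and 5xFAD SPF FAD_2142 were the shallow libraries. Levels are counts scaled to a common library total (CPM), and differences are log2 values from fits scaled by the trimmed mean of M-values (TMM). All 10 microglial markers were detected in every group. They summed to 67750 to 70680 CPM in whole brain. In cortex the sums were 34070 to 37640 CPM in SPF, 28730 to 34440 CPM in GF and 35470 to 39210 CPM with acetate. In wild-type hippocampus they were 38540 to 44370 CPM in SPF, 30700 to 32750 CPM in GF and 40340 to 43280 CPM with acetate. In 5xFAD they were 30980 to 38720 CPM in SPF, 28640 to 29060 CPM in GF and 32940 to 34210 CPM with acetate. Neutrophil markers (11 in the cortex and hippocampus table, 10 in the whole-brain table) summed to 263.4 CPM in 5xFAD SPF FAD_2153, 238.4 CPM in hippocampal wild-type GF WT_532, 172.5 and 28.5 CPM in whole-brain GF 4 and GF 1 and 18.1 CPM in cortical acetate WT_524. They summed to at most 0.467 CPM in the other whole-brain libraries and to at most 2.75 CPM in the other cortical and hippocampal libraries. The library labelled SPF_FAD_2152, a 5xFAD SPF sample, had member levels near those of wild type, and its genotype was not tested. It lay below the other 3 5xFAD SPF libraries for 9 of 9 members and nearer to the wild-type SPF libraries than to them. For Gpnmb, below means 0 counts against 1 count in FAD_2140. FAD_2152 was inside the wild-type range for 5 of 9, while its Igf1, Wfdc17 and Timp2 lay above that range. Of 27 other disease-associated microglial genes, 24 were also nearer to wild type in it; the exceptions were Cd68, Lilrb4a and Hif1a. Results that use the 5xFAD SPF group are therefore given with and without it.

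RefSeq promoters (build GRCm38.p6, 250 bases before to 50 bases after the start) were found for 8 of the 9 members, 9 promoters in all. They were searched on both strands for the AP-1 site TGANTCA, the MITF/TFE E-boxes TCACGTG and TCATGTG, the ETS/PU.1 core GAGGAAGT, an NF-kB consensus, the C/EBP forms TTGCGCAA and TTGCACAA and the STAT form TTCNNNGAA, since such factors act in macrophage genes. A match was found in 3 of the 9 promoters, with no overlap between motifs. The promoters of Igf1, Spp1 and Gpnmb, which hold these matches, and that of Serpine2, the member called most often between the conditions, are printed 5′ to 3′ on the gene's strand. Capitals mark the motif.
Igf1, chr10:87860861-87861160, plus strand: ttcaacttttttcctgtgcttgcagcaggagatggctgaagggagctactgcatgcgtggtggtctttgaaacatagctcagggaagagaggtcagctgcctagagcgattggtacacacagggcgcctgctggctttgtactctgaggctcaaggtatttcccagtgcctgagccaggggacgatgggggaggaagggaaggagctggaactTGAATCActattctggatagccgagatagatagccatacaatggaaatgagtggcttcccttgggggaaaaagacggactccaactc
Spp1, first promoter, chr5:104434861-104435160, plus strand: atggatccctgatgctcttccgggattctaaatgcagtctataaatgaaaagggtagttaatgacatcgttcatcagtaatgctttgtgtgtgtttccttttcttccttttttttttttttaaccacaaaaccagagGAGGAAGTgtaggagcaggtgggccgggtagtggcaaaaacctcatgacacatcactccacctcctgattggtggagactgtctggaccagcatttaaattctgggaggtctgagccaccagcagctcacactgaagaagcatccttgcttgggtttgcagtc
Gpnmb, chr6:49036268-49036567, plus strand: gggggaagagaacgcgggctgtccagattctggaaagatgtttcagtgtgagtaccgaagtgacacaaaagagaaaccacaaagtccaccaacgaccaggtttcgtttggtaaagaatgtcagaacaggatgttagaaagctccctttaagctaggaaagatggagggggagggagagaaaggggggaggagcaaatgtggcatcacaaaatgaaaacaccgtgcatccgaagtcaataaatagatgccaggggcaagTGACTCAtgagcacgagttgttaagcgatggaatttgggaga
Serpine2, chr1:79858616-79858915, minus strand: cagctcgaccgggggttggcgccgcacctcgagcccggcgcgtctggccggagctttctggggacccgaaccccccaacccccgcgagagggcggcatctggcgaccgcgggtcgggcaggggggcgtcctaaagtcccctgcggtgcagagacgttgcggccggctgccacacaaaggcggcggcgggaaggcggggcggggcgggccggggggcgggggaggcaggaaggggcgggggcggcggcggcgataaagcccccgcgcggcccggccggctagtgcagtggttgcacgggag

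The Igf1 promoter holds the AP-1 form TGAATCA 37 bases before the start, and the Gpnmb promoter TGACTCA at 8 bases after it. AP-1 sites of this form occur in 7.81% of 32851 RefSeq promoters of the same length. The first Spp1 promoter holds the ETS/PU.1 core 113 bases before the start, as 3.2% of promoters do. The other motifs occur in 7.4% (E-boxes), 1.47% (NF-kB), 1.19% (C/EBP) and 8.3% (STAT) of promoters and in none of these 9. The Serpine2 promoter is rich in G and C, 77.7% against a median of 52.7% over all promoters, and the Igf1, Spp1 and Gpnmb promoters have 52.3%, 45.3% and 47.7%. Ccl6 and Wfdc17 lie on chromosome 11 among the same chemokine genes, with Ccl3 a neighbour of both.

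How far the members differ between 5xFAD and wild-type hippocampus was described first, since they were chosen on this difference. In SPF mice, every 5xFAD library lay above every wild-type library for 3 of 9 members (Igf1, Wfdc17 and Timp2), against 2.67% of all genes tested. Without library FAD_2152 this held for 9 of 9 members, against 6.3% of genes. For Gpnmb that rests on 1 count in FAD_2140, under the floor of 3 counts used below, against 0 in wild type. The separation held for 9 of 9 in GF mice, against 8.31% of genes. With acetate it held for 8 of 9, against 5.2% of genes, where Gpnmb was the exception. Nothing is read from these shares, since the rule used the contrast. In sorted bulk samples, fewer cells in a given state and less RNA per cell cannot be told apart.

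**Figure D1:**
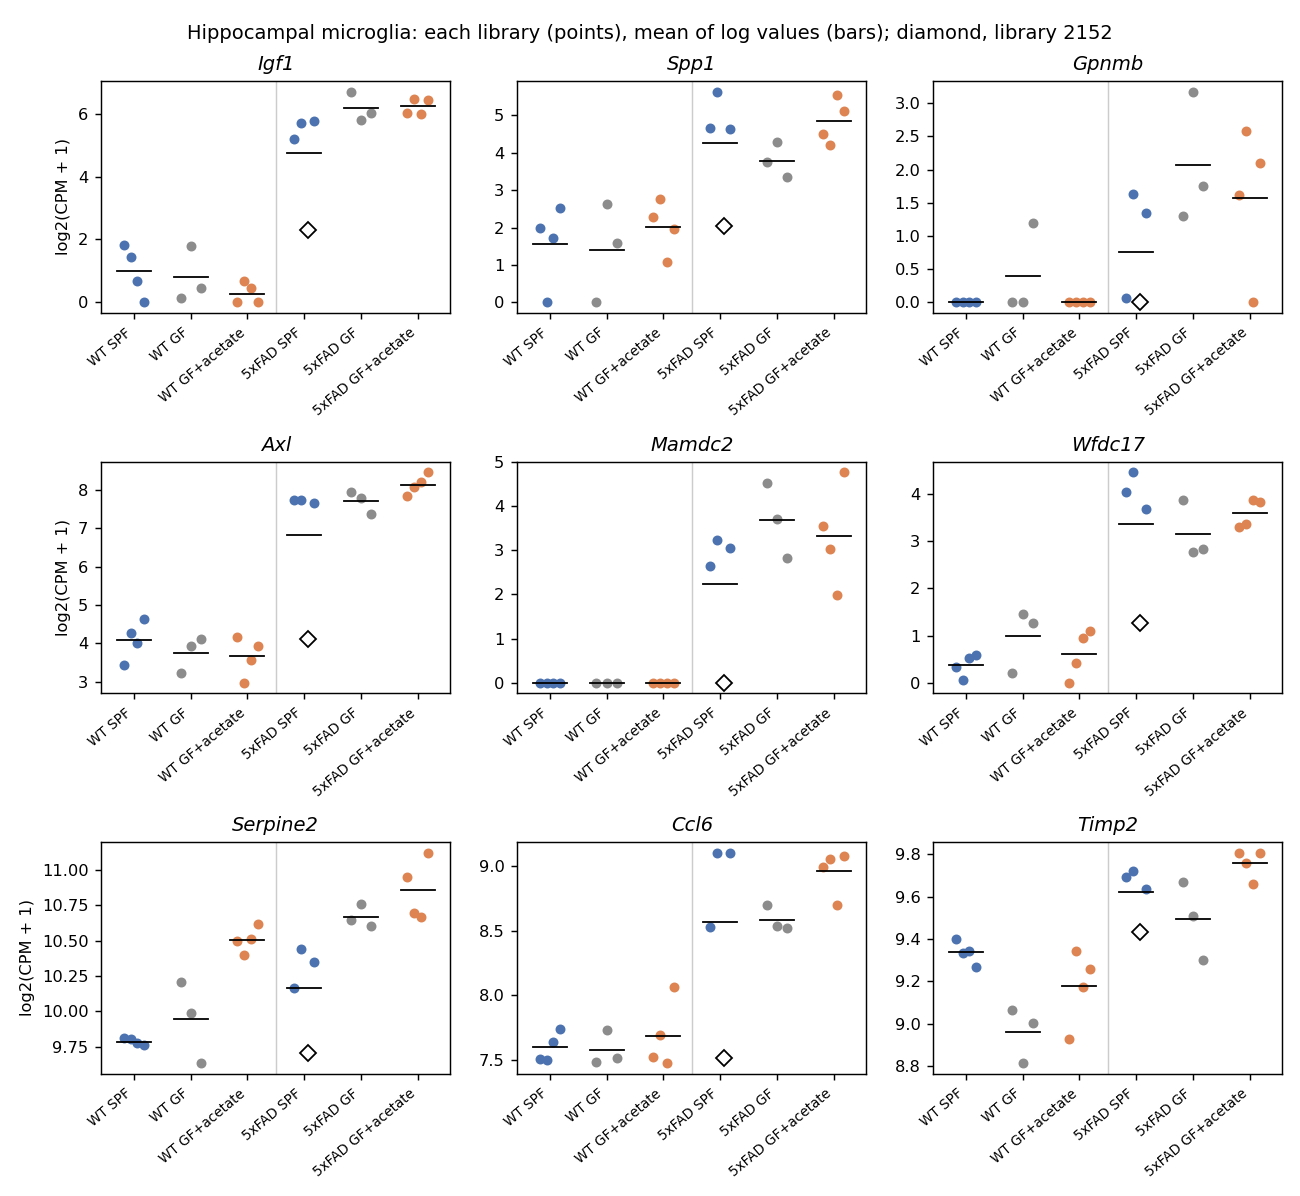
Level of each member in every hippocampal library, as log2(CPM + 1), by genotype and condition; each panel has its own vertical scale. Points are libraries, bars are the means of the log values, and the open diamond is the library labelled SPF_FAD_2152, which sits below the other 5xFAD SPF libraries in 9 of 9 panels.

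Igf1 had the widest gap between genotypes among the members with a fitted fold in GF and acetate mice. In 5xFAD SPF mice it measured 35.95 CPM in FAD_2140, 50.7 in FAD_2142, 3.93 in FAD_2152 and 53.3 in FAD_2153, against 2.53, 1.70, 0.595 and 0 CPM in wild-type SPF 1 to 4. In GF mice the values were 103.2, 54.8 and 64.5 CPM in 5xFAD against 0.108, 2.43 and 0.379 CPM in wild type, and with acetate 64.1, 88.0, 63.0 and 84.9 CPM against 0, 0.604, 0.361 and 0 CPM. The genotypes did not overlap in any condition, library FAD_2152 included, although FAD_2152 lay close to the wild-type values. The log2 difference was 4.67 (SE 0.76) in SPF, 5.04 (SE 0.61) without FAD_2152, 6.33 (SE 0.93) in GF and 8.26 (SE 0.93) with acetate. The wild-type acetate libraries held 0 to 11 counts of Igf1, so the last value rests on few reads. Igf1 overlaps the antisense gene Igf1os by gene span in the annotation. Strand handling is not given in the sources used here, and the part of Igf1os in the Igf1 counts was not tested.

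Spp1 levels were 24.4, 48.75, 3.15 and 23.97 CPM in 5xFAD SPF libraries FAD_2140, FAD_2142, FAD_2152 and FAD_2153 and 2.99, 0, 2.33 and 4.78 CPM in wild-type SPF 1 to 4. Without FAD_2152 the groups were separate, and with it they overlapped. In GF mice they were 12.45, 18.5 and 9.19 CPM against 0, 5.22 and 2.001 CPM, and with acetate 21.6, 17.6, 45.8 and 33.4 CPM against 3.86, 5.76, 1.13 and 2.92 CPM. The log2 difference was 3.40 (SE 0.93) in SPF, 3.77 (SE 0.87) without FAD_2152, 2.51 (SE 1.02) in GF and 3.13 (SE 0.89) with acetate. The Spp1 gene overlaps the predicted transcript Gm42793 on the same strand.

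Wfdc17, the whey acidic protein-domain factor, went from 0.253, 0.0473, 0.433 and 0.512 CPM in wild-type SPF to 15.4, 21.1, 1.41 and 11.7 CPM in 5xFAD SPF, with FAD_2152 the low value. In GF mice it measured 13.6, 5.83 and 6.13 CPM in 5xFAD against 0.162, 1.76 and 1.41 CPM, and with acetate 8.80, 9.32, 13.7 and 13.2 CPM against 0, 0.329, 0.927 and 1.13 CPM. The genotypes were separate in all 3 conditions. The log2 difference was 5.43 (SE 0.93) in SPF, 5.81 (SE 0.85) without FAD_2152, 2.98 (SE 0.91) in GF and 4.28 (SE 0.84) with acetate.

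Ccl6, the chemokine, was already abundant in wild type. Its levels were 368.1, 548.9, 181.9 and 549.6 CPM in 5xFAD SPF against 180.3, 179.7, 197.8 and 212.7 CPM in wild-type SPF, so FAD_2152 sat inside the wild-type range. In GF mice the values were 413.5, 369.7 and 366.3 CPM against 177.6, 211.5 and 181.6 CPM, and with acetate 509.4, 531.6, 415.4 and 539.0 CPM against 182.5, 205.4, 176.4 and 265.7 CPM. The log2 difference was near 1 in all: 1.09 (SE 0.22) in SPF, 1.34 (SE 0.15) without FAD_2152, 1.04 (SE 0.25) in GF and 1.29 (SE 0.22) with acetate.

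Axl, the Gas6 receptor, separated the genotypes cleanly except for FAD_2152. It measured 210.5, 211.4, 16.5 and 202.4 CPM in 5xFAD SPF libraries FAD_2140, FAD_2142, FAD_2152 and FAD_2153, against 9.83, 18.25, 15.3 and 24.05 CPM in wild-type SPF. In GF mice it measured 245.7, 221.9 and 164.4 CPM against 8.31, 14.4 and 16.5 CPM, and with acetate 226.7, 266.5, 292.6 and 352.3 CPM against 17.1, 6.86, 10.8 and 14.4 CPM. The other 3 5xFAD SPF libraries lay close together, and FAD_2152 fell inside the wild-type range. The log2 difference was 3.28 (SE 0.52) in SPF, 3.66 (SE 0.28) without FAD_2152, 4.04 (SE 0.62) in GF and 4.55 (SE 0.55) with acetate.

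Gpnmb and Mamdc2 were low outside 5xFAD. In whole brain Gpnmb had 10, 12, 8, 8 and 0 counts in GF 1 to 5 (0.426, 0.516, 0.315, 0.328 and 0 CPM) and 0, 1 and 0 counts in SPF 1, 3 and 4, and it was not tested there. Mamdc2 had 0 counts in 23 of 23 wild-type cortical and hippocampal libraries and 1 count in 1 whole-brain library. It measured 5.28, 8.36, 0 and 7.32 CPM in 5xFAD SPF, 22.04, 12.04 and 6.08 CPM in 5xFAD GF and 10.7, 7.11, 2.94 and 26.2 CPM in 5xFAD with acetate. Against a floor of 3 counts per wild-type library, Mamdc2 was at least 21.6-fold higher in 5xFAD SPF (28.9-fold without FAD_2152), 79.3-fold in GF and 71.5-fold with acetate. Gpnmb measured 0.0513 (1 count), 2.09, 0 and 1.54 CPM in 5xFAD SPF, 1.47, 8.02 and 2.35 CPM in 5xFAD GF and 2.08, 4.96, 0 and 3.28 CPM in 5xFAD with acetate. In hippocampal wild type it had 0 counts in every library but GF WT_532, which held 24 counts (1.30 CPM). That library also carried 238.4 CPM of neutrophil markers, against 0 to 1.84 CPM in the other wild-type GF libraries, and the part of these cells in its Gpnmb value was not tested. Gpnmb was at least 3.8-fold higher than the floor in 5xFAD SPF (5.07-fold without FAD_2152) and at least 15.7-fold with acetate, and its log2 difference in GF was 3.18 (SE 1.80).

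The protease inhibitors moved least between genotypes. Serpine2 measured 1145, 1387, 833.9 and 1305 CPM in 5xFAD SPF against 896.8, 891.7, 875.8 and 867.5 CPM in wild-type SPF, so FAD_2152 lay below the lowest wild-type library. In GF mice it measured 1601, 1727 and 1555 CPM against 1179, 1017 and 793.5 CPM. With acetate the values were 1977, 1655, 1627 and 2227 CPM against 1444, 1346, 1455 and 1566 CPM, again without overlap. The log2 difference was 0.40 (SE 0.13) in SPF, 0.53 (SE 0.12) without FAD_2152, 0.74 (SE 0.15) in GF and 0.39 (SE 0.13) with acetate. Timp2 measured 826.2, 841.8, 690.5 and 793.6 CPM in 5xFAD SPF against 675.1, 644.8, 648.3 and 616.4 CPM in wild-type SPF, 813.7, 727.7 and 630.7 CPM against 534.3, 449.3 and 511.9 CPM in GF, and 894.9, 865.2, 806.2 and 892.1 CPM against 486.9, 649.5, 577.2 and 611.6 CPM with acetate. Its genotypes were separate in each condition, with log2 differences of 0.28 (SE 0.10) in SPF, 0.34 (SE 0.10) without FAD_2152, 0.57 (SE 0.12) in GF and 0.59 (SE 0.10) with acetate. Cep295nl overlaps Timp2 on the same strand by gene span, and its part in the Timp2 counts was not tested.

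**Figure D2:**
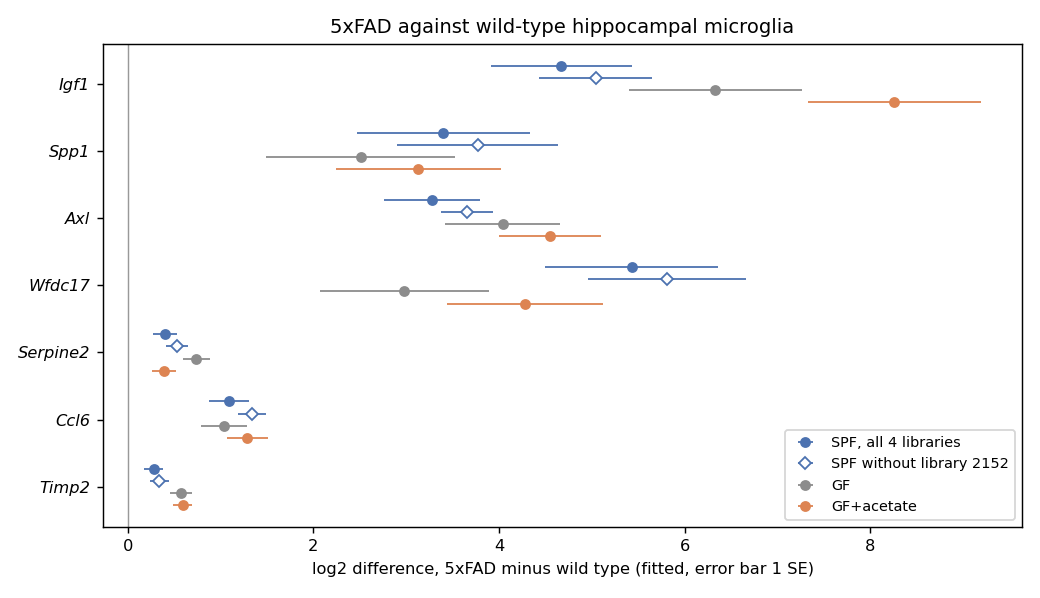
Fitted log2 difference, 5xFAD minus wild type, in hippocampal microglia for the 7 members with a fitted value in every condition; error bars are 1 SE, and open diamonds leave out library FAD_2152. Igf1 reaches 8.26 with acetate, while Serpine2 and Timp2 stay at or below 0.74; no test is attached, since the members were chosen on this contrast.

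Over the members with a fitted fold, the median log2 difference was 3.28 in SPF (7 members, 3.66 without FAD_2152), 2.75 in GF (8 members, Gpnmb included) and 3.13 with acetate (7 members), beside 0.01, 0.00 and 0.00 over all genes. With Gpnmb and Mamdc2 at their bounds it was 3.28, 2.98 and 3.97. Markers of other cells that can express some members were compared over the same groups. Monocyte markers (7 of 8 detected in 5xFAD SPF and 5 of 8 in wild-type SPF) summed to 12.25 to 33.98 CPM in 5xFAD SPF against 5.12 to 18.6 CPM in wild-type SPF, with Ly6c2 at 0 in both, and to 7.45 to 14.8 against 0.911 to 22.8 CPM in GF and 6.40 to 18.9 against 5.87 to 24.1 CPM with acetate. Border macrophage markers (8 of 9 and 7 of 9 detected) summed to 567.9 to 861.2 CPM in 5xFAD SPF and 670.5 to 970.4 CPM in wild-type SPF, and Cd209f was at 0 in both. Markers of oligodendrocyte precursors (3 of 5 detected in 5xFAD GF and 2 of 5 in wild-type GF), with Pdgfra and Gpr17 at 0 in 5xFAD, summed to 4.45 to 6.47 CPM in 5xFAD GF against 0.0541 to 2.43 CPM in wild-type GF. With acetate they summed to 1.03 to 5.94 CPM against 0 to 0.465 CPM, and in SPF to 0.0562 to 5.97 CPM, highest in FAD_2153, against 0 to 0.512 CPM. Their part in the members' levels was not tested.

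Whether the genotype difference itself changed with the microbiota was tested as an interaction in the hippocampal fit. By edgeR's quasi-likelihood test with Benjamini-Hochberg adjustment, 0 of 9 members and 0% of 17063 genes passed in each of the 3 interactions. Mamdc2, at 0 counts in all wild-type groups, could not pass in any of them. Nor could Gpnmb for acetate against SPF. At an unadjusted p under 0.05 there were 0 members for GF against SPF, 0 for acetate against GF and 2 for acetate against SPF, and DESeq2 also called 0 members in each. Those 2 were Igf1, with an interaction of log2 3.59 (SE 1.20, unadjusted p = 0.0067, edgeR adjusted p = 0.55), and Timp2 with 0.31 (SE 0.14, unadjusted p = 0.037, edgeR adjusted p = 0.73). Without FAD_2152 they were 3.21 and 0.25. The Serpine2 interaction for acetate against SPF was -0.01, with a 95% interval of -0.37 to 0.35. The 95% intervals given here are somewhat too narrow, as set out under the processing. The 5xFAD SPF values that enter these interactions were in view when the members were chosen.

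What germ-free housing and acetate changed within a genotype was then compared. The acetate mice were also germ-free, so acetate against SPF differs in microbiota and in acetate at once. That comparison cannot tell the parts of these apart. The median log2 difference over the members tested ran from -0.17 (cortex, acetate against GF) to 0.70 (5xFAD, acetate against SPF). Over all genes it was -0.01 to 0.01. The 0.70 includes library FAD_2152. Without it the members' values ran from -0.50 (Wfdc17) to 1.14 (Gpnmb), and the middle value was 0.47 (Axl). The 5xFAD SPF values were also in view when the members were chosen. Serpine2 was the member that passed most often. In cortex it measured 1008, 865.7, 847.1 and 840.2 CPM in SPF, 922.8, 1130, 1054 and 883.5 CPM in GF and 1408, 1397, 1414 and 1639 CPM with acetate. Each acetate library lay above each SPF and GF library, while SPF and GF overlapped. It rose with acetate by log2 0.72 against SPF (SE 0.11, adjusted p = 0.0032) and by 0.63 against GF (SE 0.11, adjusted p = 0.009), in edgeR's quasi-likelihood test with Benjamini-Hochberg adjustment over all genes. The call against GF was lost without GF WT_528 (adjusted p = 0.051). GF against SPF gave log2 0.09 (SE 0.11, adjusted p = 0.81). Serpine2 was the 1 of 7 members tested that passed in each acetate comparison, where 0.973% of genes passed against GF and 0.364% against SPF.

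In wild-type hippocampus the Serpine2 levels given above ran from 867.5 to 896.8 CPM in SPF, from 793.5 to 1179 CPM in GF and from 1346 to 1566 CPM with acetate. The acetate libraries again lay above all others. Serpine2 was higher in acetate than in SPF mice by log2 0.71 (SE 0.13, edgeR adjusted p = 0.022). It was the 1 member of 9 to pass, where 0.123% of genes did. Mamdc2 and Gpnmb had 0 counts in both groups and could not pass. Against GF the Serpine2 difference was 0.62 (SE 0.14) at an edgeR adjusted p of 0.051. There 0 of 9 members passed, Mamdc2 again at 0 counts, where 0.492% of genes did. At an unadjusted p under 0.05 there were 3, and DESeq2 called 1, Serpine2. Among the 3 was Gpnmb (edgeR unadjusted p = 0.023), whose counts came from GF WT_532 alone (24 counts). The 2 acetate comparisons share their acetate libraries, and those in cortex and hippocampus are taken to come from the same mice.

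In 5xFAD hippocampus Serpine2 ran from 833.9 to 1387 CPM in SPF, from 1555 to 1727 CPM in GF and from 1627 to 2227 CPM with acetate. All GF and acetate libraries lay above all SPF libraries, with or without FAD_2152. Acetate against SPF gave log2 0.70 (SE 0.13, edgeR adjusted p = 0.044). There 0.0527% of genes passed and Serpine2 was the 1 member of 9. Without FAD_2152 the difference was 0.57 with an adjusted p of 0.058, which ends the call. GF against SPF gave 0.43 (SE 0.14, adjusted p = 0.15), or 0.30 (adjusted p = 0.31) without FAD_2152. Acetate against GF gave 0.27 (SE 0.14, adjusted p = 0.72). The 0.70 therefore cannot be credited to acetate alone. In whole brain, the GF and SPF levels were 1380 to 1589 and 1479 to 1490 CPM, with a log2 difference of 0.00 (SE 0.05).

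Serpine2 is also made by astrocytes. In cortex the astrocyte markers, 8 of 8 detected in GF and acetate, summed to 224.5 to 317.3 CPM with acetate, 367.3 to 478.7 CPM in GF and 281.2 to 384.9 CPM in SPF. In wild-type hippocampus they summed to 207.1 to 394.6 CPM with acetate, 334.3 to 459.3 CPM in GF and 225.8 to 297.1 CPM in SPF, with Gfap at 0 in all 3 groups. In 5xFAD the sums were 224.0 to 344.3 CPM with acetate, 475.4 to 497.3 CPM in GF and 241.7 to 308.5 CPM in SPF. Their part in the Serpine2 levels was not tested.

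**Figure D3:**
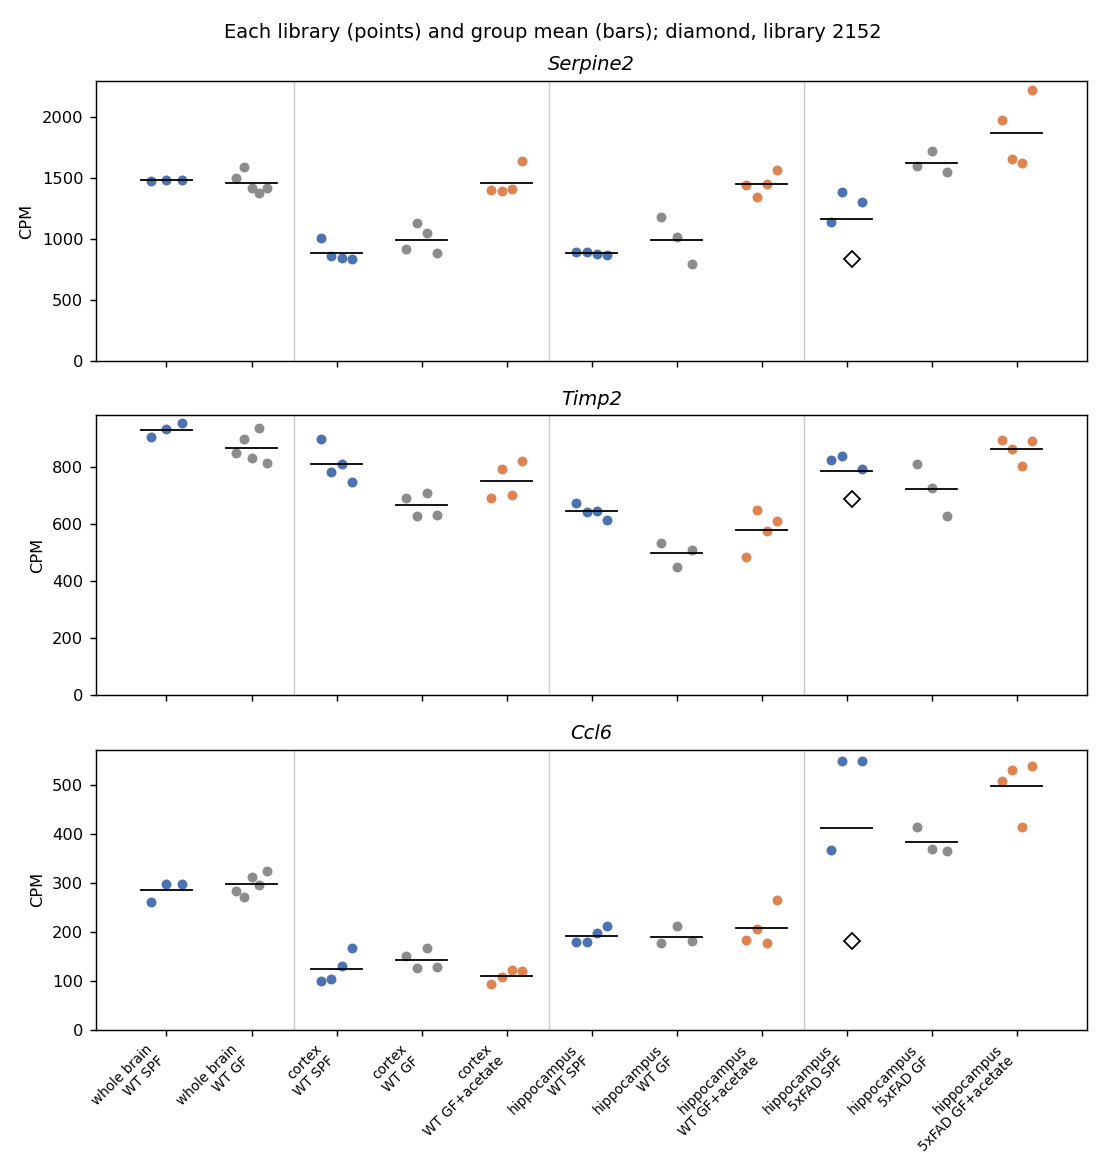
CPM of Serpine2, Timp2 and Ccl6 in every library of the 11 groups, with group means as bars and the library labelled SPF_FAD_2152 as an open diamond. Serpine2 in cortex lies at 1397 CPM or more with acetate and at 1130 CPM or less in SPF and GF; Ccl6 is higher in hippocampus than in cortex. Whole brain comes from a separate table and younger mice, and no test was made across it.

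Timp2, the metalloproteinase inhibitor, was lower in GF than in SPF wild-type hippocampus. GF libraries measured 449.3 to 534.3 CPM and SPF libraries 616.4 to 675.1 CPM, without overlap. The fall was 0.46 on the log2 scale (log2 -0.46, SE 0.11, edgeR adjusted p = 0.047). The microglial marker sums were lower in GF too, at 30700 to 32750 CPM against 38540 to 44370 CPM in SPF. Whether the Timp2 fall goes beyond that difference was not tested. Mamdc2 had 0 counts in both groups and could not pass. Timp2 was the 1 member of 9 to pass, where 0.727% of genes did. It was called in 2 of 14 alternatives, with adjusted p from 0.0058 to 0.21, and the call was lost without any single library of the groups compared. In cortex the levels were 898.4, 783.1, 813.0 and 748.2 CPM in SPF and 692.7, 631.2, 710.9 and 633.0 CPM in GF, also without overlap (log2 -0.36, SE 0.10, adjusted p = 0.071). No member passed there by edgeR, where 1.71% of genes did; Timp2 was the 1 member at an unadjusted p under 0.05 and the 1 called by DESeq2. Acetate against GF gave 0.25 (SE 0.10, adjusted p = 0.28) in cortex, 0.30 (SE 0.11, adjusted p = 0.26) in wild-type hippocampus and 0.32 (SE 0.11, adjusted p = 0.39) in 5xFAD hippocampus. In whole brain Timp2 measured 905.9 to 957.3 CPM in SPF and 816.4 to 938.4 CPM in GF (log2 -0.09, SE 0.06, adjusted p = 0.5).

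Igf1 was the 1 of 6 members tested that passed in whole brain, where 1.99% of genes did. It had 20, 6 and 15 counts in SPF 1, 3 and 4 (0.934, 0.253 and 0.776 CPM) and 56, 65, 52, 102 and 99 counts in GF 1 to 5 (2.38, 2.80, 2.05, 4.18 and 5.05 CPM). Each GF library lay above each SPF library. The rise was log2 2.35 (SE 0.55, edgeR adjusted p = 0.047), and it was called in 4 of 12 alternatives, with adjusted p from 0.00097 to 0.2; leaving out a single library ended it for 7 of the 8. Neutrophil markers summed to 172.5 CPM in GF 4 and 28.5 CPM in GF 1, against 0 to 0.467 CPM in the other 6 libraries, and their part in the Igf1 values was not tested. In cortex Igf1 measured 1.61, 0, 0.294 and 0 CPM in SPF and 4.33, 1.29, 1.01 and 1.29 CPM in GF (log2 1.92, SE 1.09, adjusted p = 0.49). In wild-type hippocampus, where the groups overlapped, GF against SPF gave -0.65 (SE 0.92, adjusted p = 0.86) and acetate against SPF -2.50 (SE 1.04, adjusted p = 0.53).

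In 5xFAD hippocampus no other member passed between conditions. GF against SPF gave 0 of 9 members, where 1.82% of genes passed (1 at an unadjusted p under 0.05, 0 by DESeq2), and acetate against GF gave 0 of 9, where 0.082% did (1 at an unadjusted p under 0.05, 0 by DESeq2). For Igf1, GF against SPF was log2 1.01 (SE 0.65, 95% interval -0.26 to 2.27), or 0.63 without FAD_2152, and acetate against GF was 0.08 (95% interval -1.19 to 1.34). For Spp1, GF against SPF was -0.95 (SE 0.90), or -1.32 without FAD_2152. For Axl, acetate against SPF was 0.85 (95% interval -0.07 to 1.77), or 0.47 without FAD_2152. For Wfdc17, GF against SPF was -0.58 (SE 0.78), or -0.96 without FAD_2152. Gpnmb and Mamdc2 gave 2.11 (SE 1.58) and 1.33 (SE 0.97) for GF against SPF, or 1.67 and 0.90 without FAD_2152. The 95% intervals for GF against SPF ran from -2.70 to 0.81 for Spp1, from -0.98 to 5.20 for Gpnmb and from -2.11 to 0.95 for Wfdc17. For Spp1, acetate against SPF was 0.26, and turned to -0.11 without FAD_2152.

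**Figure D4:**
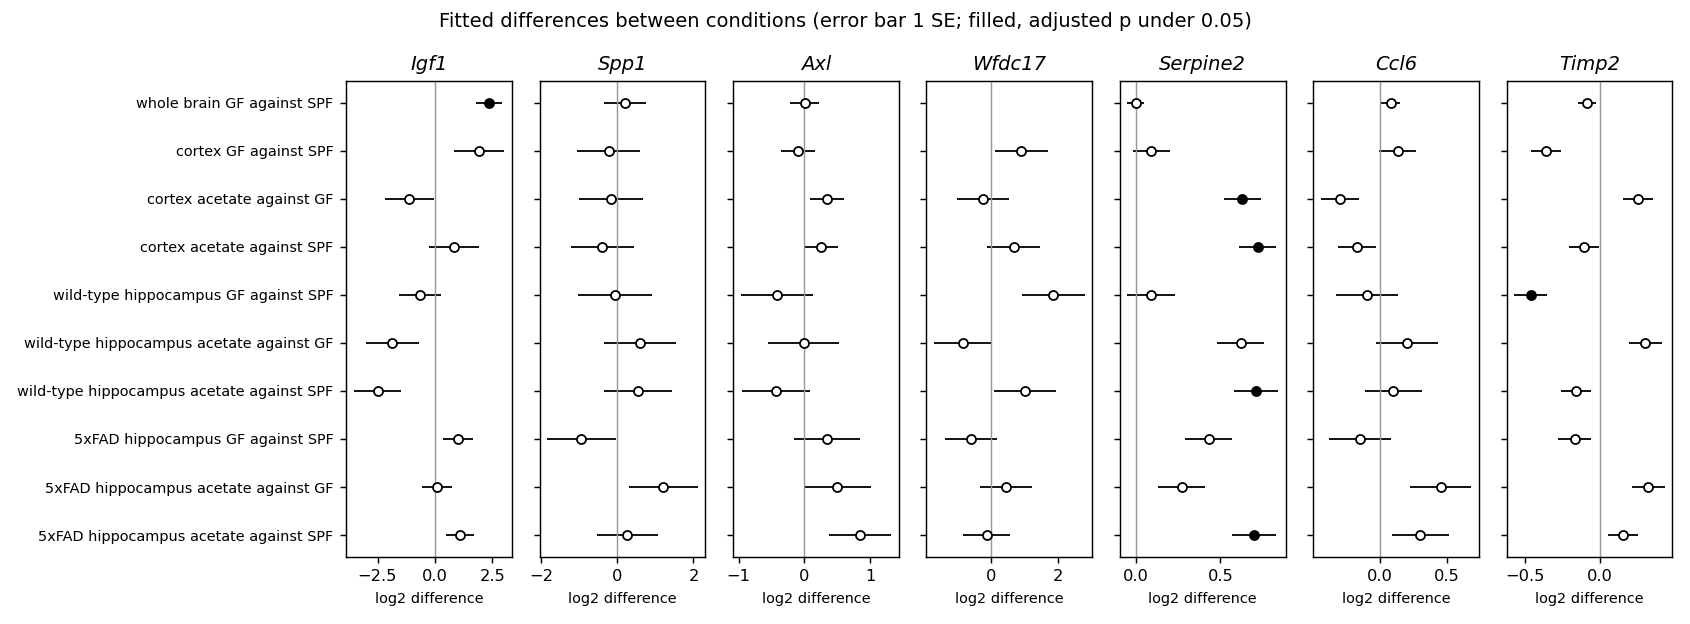
Fitted log2 differences between housing conditions for 7 members, with 1 SE as error bars; each panel has its own horizontal scale, and filled points passed an adjusted p of 0.05. Serpine2 has 4 filled points, all of acetate mice, against SPF and, in cortex, also against GF. Igf1 has 1 (whole brain) and Timp2 has 1 (wild-type hippocampus).

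Regional levels were compared in wild-type mice with the animal, taken from the number in the titles, as a block. Ccl6 was higher in hippocampus than in cortex. In SPF mice it measured 180.3, 179.7, 197.8 and 212.7 CPM in hippocampus and 98.9, 104.7, 130.8 and 166.3 CPM in cortex, and with acetate 182.5, 205.4, 176.4 and 265.7 CPM against 94.3, 106.9, 121.5 and 119.1 CPM, without overlap in either. The rise was log2 0.63 in SPF (SE 0.11, edgeR adjusted p = 0.023) and 0.85 with acetate (SE 0.11, adjusted p = 0.0031). In GF it was 0.39 (SE 0.12, adjusted p = 0.19). The acetate call was made in 14 of 15 alternatives, and the SPF call in 5 of 15, being lost without any single library and without the block. Timp2 had log2 differences, hippocampus minus cortex, of -0.35 in SPF (SE 0.08, adjusted p = 0.056), -0.45 in GF (SE 0.09, adjusted p = 0.067) and -0.42 with acetate (SE 0.08, adjusted p = 0.019), and the last alone passed. In all, 1 of 7 members tested passed in SPF, 0 in GF (2 at an unadjusted p under 0.05, and 2 by DESeq2) and 2 with acetate, where 0.697%, 0.0357% and 2.31% of genes passed. Serpine2 differed little between regions, with -0.03 (SE 0.06), -0.10 (SE 0.07) and -0.05 (SE 0.06). The transcript E230016K23Rik overlaps Ccl6 on the opposite strand.

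Ordered by mean CPM within cortex and hippocampus, 5xFAD groups held the first 3 places for Igf1, Spp1, Axl, Wfdc17, Ccl6, Gpnmb and Mamdc2, and neighbouring 5xFAD groups overlapped in their ranges except for Igf1 between GF (54.8 to 103.2 CPM) and SPF (3.93 to 53.3 CPM). Serpine2 placed cortical and hippocampal wild-type acetate groups (1464 ± 117 and 1453 ± 89.9 CPM, SD, n = 4 each) above 5xFAD SPF (1168 ± 244 CPM, n = 4, or 1279 ± 123 CPM without FAD_2152), and the cortical range lay wholly above that of 5xFAD SPF while the hippocampal range overlapped it. For Timp2, cortical SPF (811 ± 64.2 CPM, n = 4) came second after 5xFAD with acetate (865 ± 41.2 CPM, n = 4). These ranges overlapped.

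Partner genes were taken from lists chosen with earlier results of these data known, and the counts below cover the housing and region comparisons. All tests are edgeR's quasi-likelihood test with Benjamini-Hochberg adjustment over all genes. Of 16 genes of the insulin-like growth factor system (receptors, binding proteins and proteases), 5 were tested in whole brain, 7 in cortex and 8 in hippocampus, and 0 beside Igf1 passed. None of the 7 to 10 tested Gpnmb-related lysosomal and MITF/TFE genes passed. Of the 7 whey acidic protein-domain genes, Wfdc17 was the 1 tested.

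Of 9 TAM receptor and ligand genes, 8 were tested in hippocampus. The ligand Pros1 fell in wild-type GF against SPF (log2 -0.55, SE 0.09, adjusted p = 0.0042). It rose with acetate against GF (log2 0.60, SE 0.09, adjusted p = 0.0042), and was the 1 of 8 in each. These calls share the wild-type GF libraries, so a low value in that group would give each of them. The Axl ligand Gas6 was the 1 of 8 that fell in 5xFAD GF against SPF (log2 -0.63, SE 0.16, adjusted p = 0.038), and the call was lost without FAD_2152 (log2 -0.61, adjusted p = 0.068) or without FAD_2153 (log2 -0.62, adjusted p = 0.073), with the difference nearly the same. Between regions in SPF mice the receptor Mertk (log2 -0.33, SE 0.07, adjusted p = 0.047) and the sheddase Adam17 (log2 -0.59, SE 0.11, adjusted p = 0.03) were lower in hippocampus, 2 of 9 tested. Of 14 genes of osteopontin receptors and processing, 10 were tested in cortex. The integrin Itgb3 was the 1 that fell in GF against SPF (log2 -0.65, SE 0.15, adjusted p = 0.035). The transglutaminase Tgm2 was the 1 that was higher in acetate than in SPF mice (log2 0.74, SE 0.14, adjusted p = 0.02). The integrin genes Itgav in SPF mice (log2 -0.43, SE 0.09, adjusted p = 0.043), and Itgb5 (log2 -0.48, SE 0.08, adjusted p = 0.011) and Itga9 (log2 -0.41, SE 0.10, adjusted p = 0.038) in acetate mice, were lower in hippocampus than in cortex.

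Of 15 serpins and target proteases, 7 to 9 were tested. Serpinf1 rose in whole-brain GF against SPF (log2 0.66, SE 0.10, adjusted p = 0.0032). Of 17 metalloproteinase and TIMP genes, 11 were tested. Beside Timp2 and Adam17, Adamts1 rose in GF against SPF in whole brain (log2 0.91, SE 0.22, adjusted p = 0.049) and in wild-type hippocampus (log2 1.5, SE 0.27, adjusted p = 0.009).

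Of 16 CC chemokine and receptor genes, 13 were tested in whole brain and 14 elsewhere. Ccl4 (log2 1.43, SE 0.21, adjusted p = 0.0033) and Ccl3 (log2 1.35, SE 0.25, adjusted p = 0.012) rose in whole-brain GF against SPF, while Ccl6 gave 0.08. Ccl9 fell in wild-type hippocampus in GF against SPF (log2 -0.69, SE 0.16, adjusted p = 0.037), a call lost without WT_532 while the difference was larger (log2 -0.77, adjusted p = 0.053). In 5xFAD GF against SPF the Ccl6 receptor Ccr1 fell (log2 -1.87, SE 0.46, adjusted p = 0.035), a call lost without the neutrophil-marker library FAD_2153 (log2 -1.86, adjusted p = 0.061) and kept without FAD_2152 (adjusted p = 0.02). Ccl12 fell there too (log2 -2.14, SE 0.44, adjusted p = 0.011), and by 2.42 on the log2 scale without FAD_2152 (log2 -2.42, adjusted p = 0.0025). Between regions, Ccl9, a chromosomal neighbour of Ccl6, was higher in hippocampus in SPF (log2 0.87, SE 0.13, adjusted p = 0.015) and acetate mice (0.72, SE 0.13, adjusted p = 0.015), and Ccl4 was higher in SPF mice (1.03, SE 0.22, adjusted p = 0.048). In cortex, Ccl3 fell with acetate against GF (log2 -1.03, SE 0.23, adjusted p = 0.038) and the scavenging receptor Ackr2, at very low counts, rose in GF against SPF (adjusted p = 0.048).

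The genes whose hippocampal pattern was most like each member were found by the root-mean-square difference over the 5 fitted log2 differences from wild-type SPF, among 9555 genes with a mean of at least 5 CPM. For Igf1 the nearest was Cst7 (0.94), followed by Bhlhe40 (1.5) and Ifi207 (1.62). Spp1 was nearest to the interferon-induced genes Rsad2 (0.39), Zbp1 (0.40) and Oasl2 (0.42), and Axl to Egln3 (0.40), Rab7b (0.44) and Zbp1 (0.60). The nearest to Wfdc17 were Actr3b (0.40), Ch25h (0.85) and Cybb (0.91). Serpine2 was nearest to Unc13b (0.13), Ier3 (0.17) and Mcm4 (0.17), Ccl6 to Kcnj2 (0.10), Ndufa1 (0.12) and Tsc22d1 (0.15), and Timp2 to Nupl2 (0.04), Creg1 (0.06) and Bag1 (0.07). The 6 groups share libraries and library FAD_2152 is among them, and Gpnmb and Mamdc2 have no value since wild-type groups were at 0. The differences of the 5xFAD groups follow the contrast on which the members were chosen, so near genes tend to share it. Spp1 differences had SEs of 0.93 (5xFAD SPF), 0.98 (wild-type GF) and 0.89 (wild-type acetate), wider than its distances of 0.39 to 0.42. The order of the genes was not tested, and no link is read from it.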

How the data were processed

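The authors deposited raw counts per gene in a whole-brain table and a cortex and hippocampus table. The submitters' processing notes name STAR 2.5.2b, featureCounts 1.5.1 and the genome GRCh38. GRCh38 is human, yet the gene symbols are of mouse, and the tables were used without coordinates; promoters come from RefSeq on GRCm38.p6. Strand handling is not given in the sources used here. The whole-brain and the other table were never tested against each other.

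Levels are CPM, each count divided by its library's total. Tests were edgeR 4.0.16 quasi-likelihood tests (R 4.3.3, limma 3.58.1) with TMM scaling and filterByExpr at a minimum count of 10. Benjamini-Hochberg adjustment was over all genes tested, two-sided, at a threshold of 0.05. The 95% intervals take the SE with a normal distribution and leave out the limited degrees of freedom of the test. They are therefore too narrow and can exclude 0 where the test does not pass. For Wfdc17 in wild-type hippocampus, GF against SPF gave an interval of 0.03 to 3.71 with an unadjusted edgeR p of 0.058. Whole brain (8 libraries), cortex (12), hippocampus (22) and regions (23, animal as a block) were fitted apart. Cortex and hippocampus libraries with the same number in the titles were taken to come from the same mice. For SPF mice the titles give only the numbers 1 to 4, which may be replicate numbers. Residuals of the 11 pairs had r from 0.031 to 0.271, over 0.1 in 6, and do not settle the pairing. Replicates were taken as separate animals from the numbers in the titles. The p-values set each difference against the estimated spread between these libraries. In 61 pairs within groups the counts differed by a chi-square per degree of freedom of 10.1 to 60.2. That shows only that the libraries of a pair were not copies of one another. In simulated data with 200 changed genes, changes of log2 1 and log2 2 were recovered for 69% and 90% of genes with the whole-brain design, 50% and 77% with the cortical one, 35% and 57% with the hippocampal wild-type one, 38% and 58% with the hippocampal 5xFAD one and 22% and 49% for the interaction, all for GF against SPF. False calls made up 9.14%, 4.51%, 2.13%, 2.04% and 7.79% of the calls in these designs, in the same order.

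The members and lists were chosen with earlier results of these data known. Every member is named. From each list the text gives counts and up to 4 called genes with the smallest p, apart from some genes that are not reported here, and for each member the 3 genes of most like pattern. Where a group had 0 counts, folds are bounds against 3 counts per library and cover counting error only. Alternatives were DESeq2 1.42.0, scaling by RLE, filtering at a mean of 5 CPM or not at all, only the groups compared, the replicate block on or off, each replicate left out, and libraries left out together. For the partner genes in hippocampus, libraries FAD_2152, FAD_2153 and WT_532 were left out in turn, a choice made after seeing the data. Members counted at an unadjusted p under 0.05, or called by an alternative, are given without the share of all genes at that cut. Those counts therefore cannot be set against all genes.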

Additional observations from a re-analysis of the deposited data

Results flagged for a closer look

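In groups of 4 to 10 libraries, a library was singled out where its gap to the nearest other exceeded Dixon's critical value. Of 62 member and group combinations tested, 5 were singled out, in 4 libraries. The critical value gives about 1 in 20 by chance for independent, normal values. Some groups here are near 0 counts and the combinations share libraries, so the share singled out cannot be set against that rate. Axl in the library labelled SPF_FAD_2152 measured 16.46 CPM against 202.4 to 211.4 CPM in the other 3. That library lay nearer to wild type for 9 of 9 members, and its genotype was not tested. Igf1 in cortical GF WT_528 measured 4.332 CPM against 1.013 to 1.288 CPM in the other GF libraries. Serpine2 measured 1008 CPM in cortical SPF 1 against 840.2 to 865.7 CPM in the others, and 1639 CPM in cortical acetate WT_525 against 1397 to 1414 CPM. Gpnmb in cortical acetate WT_525 had 1 count (0.0531 CPM), where the other 3 had 0 counts. Any lone count would be singled out there.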

How the results depend on the processing

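No value of a called result changed sign under any alternative run. The number of members above wild type in every 5xFAD SPF library went from 3 to 9 without FAD_2152 and FAD_2153, and to 9 without these and wild-type GF WT_532, a choice made after seeing the data. With DESeq2, members called went from 0 to 1 in cortex GF against SPF, from 0 to 1 in wild-type acetate against GF, and between regions from 0 to 2 in GF and from 1 to 2 in SPF. With a filter at a mean of 5 CPM and with no filter they went from 0 to 1 in wild-type acetate against GF, from 0 to 1 between regions in GF and from 1 to 2 in SPF; the first filter gave 0 in whole brain, where it removes Igf1. Fitting only the groups compared gave 0 in 5xFAD acetate against SPF, 0 in wild-type GF against SPF, 0 between regions with acetate and 2 in SPF. RLE size factors gave 0 in 5xFAD acetate against SPF and 0 in wild-type GF against SPF, which also had 0 with no filter and 0 without FAD_2152, FAD_2153 and WT_532. Without the 2 shallow and 2 few-gene libraries (wild-type SPF 4, 5xFAD SPF FAD_2142, GF WT_530 and acetate WT_518) the count was 0 in 5xFAD acetate against SPF, 0 in wild-type GF against SPF, 0 in wild-type acetate against SPF, 0 between regions in SPF and 1 with acetate, and without FAD_2152 and FAD_2153 it was 0 in 5xFAD acetate against SPF. Apart from what the filter removes, the cause was not tested. Whole-brain replicate numbers name different mice and do not pair (r from -0.0299 to -0.0193); with the replicate block 0 members were called, Igf1 having log2 2.24 (adjusted p = 0.2). With no replicate block between regions, 0 members were called in SPF.

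With each replicate left out in turn, members called ranged from 0 to 1 in whole brain, in cortex GF against SPF and acetate against GF, in wild-type acetate against GF and against SPF, and in 5xFAD acetate against SPF. They were 0 in wild-type GF against SPF, 0 between regions in SPF and 1 to 2 between regions with acetate, and members above wild type were 3 to 9 in SPF and 8 to 9 with acetate. Serpine2 in cortex with acetate against SPF was called in 13 of 13 alternatives (adjusted p 2.3e-07 to 0.022) and against GF in 12 of 13 (1.1e-05 to 0.051), in wild-type hippocampus against SPF in 8 of 15 (0.00024 to 0.11) and in 5xFAD against SPF in 6 of 16 (0.001 to 0.22). Timp2 between regions with acetate was called in 7 of 15 (6.1e-05 to 0.11).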

Other observations

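Wdfy1, a coding neighbour of Serpine2 on chromosome 1 that was looked up after the Serpine2 values were seen, was higher in GF than in SPF by log2 3.72 (SE 0.16, edgeR adjusted p = 1.8e-08) in whole brain, where Serpine2 had 0.00. With acetate against SPF it was higher by 1.35 (adjusted p = 0.0014) in cortex and 1.60 (adjusted p = 0.00085) in wild-type hippocampus. In 5xFAD hippocampus it did not pass with acetate against SPF (0.57, adjusted p = 0.55) or in GF against SPF (0.75, adjusted p = 0.11). It was already higher in GF without acetate, by 0.91 in cortex (adjusted p = 0.01) and 1.09 in wild-type hippocampus (adjusted p = 0.027), where Serpine2 had 0.09 in both. Mrpl44 and Cul3, the other tested coding neighbours, did not pass in these comparisons.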
